A study of Mus musculus with 6 samples.

Results

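The iron storage and transport genes described here were 8 of the 31053 genes measured in single immune cells of glioma-bearing mouse brain. They were taken by symbol as Fth1, Ftl1, Slc40a1, Slc11a1, Hmox1, Tfrc, Lcn2 and Ltf, and all 8 were found once in the list of genes. Together they held 0.971% of the transcripts counted in cells that passed the limits, and nearly all of that share (0.935%) belonged to the ferritin genes Fth1 and Ftl1. The question was how the RNA of these genes is spread over the immune cell types of the tumor hemisphere and over the states of microglia.

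The cells were CD45+ cells sorted by flow cytometry, after a Percoll gradient, from the hemisphere that carried a xenograft of U87, an established human glioma line. The 6 hosts were female SCID mice, which lack functional T and B lymphocytes but keep their innate immune cells. Of these, 3 carried U87 cells that express IL-33, a cytokine of the IL-1 family, and were taken 3 weeks after implantation, and 3 carried U87 cells with the pcDNA 3.1 empty vector and were taken at 6 weeks. Each mouse had received 50000 cells into the brain, and the labels give the strain SCID and an age of 6 to 8 weeks for both groups.

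Libraries were made with the 10x Chromium 3′ kit, in which each transcript carries a cell barcode and a unique molecular identifier (UMI). A barcode ends in a suffix from 1 to 6, 1 for each library, and no label ties a suffix to a mouse. The 6 libraries were therefore handled together as a single sample, no value below sets IL-33 against pcDNA, and no p-value was computed. Levels are CPM, the summed UMIs of a gene per 1000000 UMIs of the group of cells. Intervals are exact 95% counting intervals, which treat each UMI as independent and do not cover the spread between cells, suffixes or mice. A group of fewer cells and a group with less RNA per cell differ in their UMIs, but CPM is a share of the RNA captured and does not separate more RNA of 1 gene from less of the others.

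Ferritin is a hollow shell of heavy (Fth1) and light (Ftl1) chains that holds iron in a form that does little harm, and the heavy chain oxidizes the iron as it enters. Cells take up iron through the transferrin receptor Tfrc and release it through ferroportin, Slc40a1, the known exporter of iron from animal cells. Slc11a1 moves metal ions across the membrane of phagosomes, and Hmox1 opens the heme ring and frees its iron, so that macrophages can recycle the iron of red cells. Lcn2 and Ltf are secreted by neutrophils: lipocalin 2 binds the siderophores with which bacteria collect iron, and lactoferrin binds iron itself.

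These genes are also regulated after transcription. When iron is scarce, iron regulatory proteins bind a hairpin called the iron-responsive element, which holds back translation when it lies before the coding part and protects the transcript when it lies after it. UMIs count transcripts, so the first kind of control would not be seen in these data. The transcripts of the GENCODE vM21 annotation (GRCm38) were searched for a C, 5 bases, the loop CAGTGN and 5 bases that pair with the first 5, with G-T pairs allowed, on the transcribed strand only. The element was found before the coding part in 31 of 20853 genes (0.149%) and after it in 144 of 21144 (0.681%), and 4 of the 8 members were among them: Fth1, Ftl1, Slc40a1 and Tfrc. They are shown, 5′ to 3′ with the loop in capitals, because for Fth1, Ftl1 and Slc40a1 they mark members whose protein can change without a change in the values given here, while the elements of Tfrc act on the amount of its transcript.
Fth1, chr19:9982732-9982760, plus strand, 5′ UTR: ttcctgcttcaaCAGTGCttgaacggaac
Ftl1, chr7:45459779-45459807, minus strand, 5′ UTR: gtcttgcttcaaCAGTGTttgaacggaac
Slc40a1, chr1:45925465-45925493, minus strand, 5′ UTR: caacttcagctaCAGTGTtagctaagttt
Tfrc, chr16:32631219-32631247, plus strand, 3′ UTR: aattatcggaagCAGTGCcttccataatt
Tfrc, chr16:32631598-32631626, plus strand, 3′ UTR: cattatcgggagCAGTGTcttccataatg
Tfrc, chr16:32631663-32631691, plus strand, 3′ UTR: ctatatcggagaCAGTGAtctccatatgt
Tfrc, chr16:32631710-32631738, plus strand, 3′ UTR: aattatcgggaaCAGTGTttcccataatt

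No window of these letters was found in the untranslated parts of Slc11a1 (chr1:74375195-74386062), Hmox1 (chr8:75093621-75100589), Lcn2 (chr2:32384633-32388252) or Ltf (chr9:111019271-111042767). For Ftl1 (chr7:45457944-45459884), 121 of the 303 windows of 98 bases, the read length, in the last 400 bases of its longest transcript also occurred in a transcript of another gene, among them its near copy Ftl1-ps1. Reads from those windows cannot be assigned to 1 gene by sequence, so the level of Ftl1 is less certain than its interval shows. For the other 7 members this number was 0 of 303.

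The matrix held 40411 barcodes with at least 500 UMIs each, and 38751 passed the limits on genes and mitochondrial RNA. Between 9745192 and 24393841 UMIs were counted per suffix, with medians of 1536 to 3503 per barcode. Cells were grouped by the detection of at least 2 markers of a type, with no iron gene among the markers. The microglia-like gate held 37090 cells, and the others held 133 monocyte-like, 85 dendritic-like, 67 granulocyte-like and 122 NK-like cells and 263 choroid plexus-like barcodes. A further 128 barcodes had few microglial transcripts and at least 2 of Spp1, Lpl, Gpnmb, Lgals3 and Fabp5, genes raised in lipid-handling phagocytes, and are called the phagocyte-set gate. The gate of border macrophage genes (Mrc1, Pf4, Cbr2, F13a1, Lyve1 and Folr2) held 8 cells, in which Cbr2, Lyve1 and Folr2 were at 0 and the leading genes included the monocyte markers Chil3 and Ccr2, so it is given no cell type name. All 5 erythroid genes searched, the hemoglobin genes among them, were at 0 in the phagocyte-set, monocyte-like, dendritic-like, granulocyte-like and NK-like gates. Microglia-like cells held 8 UMIs of these genes (0.0878 CPM) and choroid plexus-like barcodes 16 (24.6 CPM). Gates of this size are too small to show a level as low as that of microglia.

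The libraries were not separate in their barcodes. Of the 29579 distinct barcode sequences 3890 occurred under more than 1 suffix, and these made up 14722 barcodes (36.4%), 13400 of them with a sequence found under 3 or more suffixes. Between 20.7% and 51.0% of the barcodes of a suffix were of this kind. Their median depth was 929 UMIs, against 3137 for barcodes of 1 suffix, and the UMIs of a sequence summed over its suffixes had a median of 3723.

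The content of these barcodes also went together. Of the 3793 sequences with at least 2 passing barcodes, 91.0% were in the same gate under each suffix. The microglia-like gate held 95.7% of all passing barcodes, so unrelated barcodes would often agree too, and this share alone shows no link. Over the 15 pairs of suffixes, with 498 to 3370 sequences in common, the share of UMIs on Fth1 had a median correlation of 0.74 across sequences (0.63 to 0.78), and that of Ftl1 one of 0.69. These points share a barcode and were sequenced in the same study, and the origin of the shared sequences was not tested. Suffixes that share barcodes are not independent, so results are given over all passing barcodes and over the 24262 of 1 suffix. The 37090 barcodes counted as microglia-like cells held 26980 distinct sequences.

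Ferritin was the most abundant of the iron functions, and its level differed between cell types. In the microglia-like gate Ftl1 had 6744 CPM (6728 to 6761) and Fth1 2538 (2528 to 2548). In barcodes of 1 suffix these were 6549 and 2199, and over the 6 suffixes Fth1 ran from 1833 through a median of 2256 to 2436 and Ftl1 from 5597 through 6091 to 7778. Every suffix had more Ftl1 than Fth1 UMIs, and detection was near complete, with Ftl1 in 98.7% and Fth1 in 94.4% of all microglia-like cells.

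Fth1 was higher than in microglia in every myeloid gate. Granulocyte-like cells had 8321 CPM (7797 to 8871), 3.28 times the microglial level (3.07 to 3.50), and monocyte-like cells 5060 CPM, 1.99 times (1.92 to 2.07). Dendritic-like cells were only slightly above microglia, at 3057 CPM, and NK-like cells were below them, at 1982. In barcodes of 1 suffix the granulocyte-like ratio was 3.52 (3.29 to 3.77) and the monocyte-like ratio 2.28 (2.20 to 2.37), higher in 3 of 3 suffixes with 20 or more monocyte-like cells. These were suffixes 4 to 6, the only ones with 20 or more monocyte-like, dendritic-like, granulocyte-like or NK-like cells. Only suffix 6 held 20 or more granulocyte-like cells. Over all suffixes their Fth1 ran from 2908 CPM in suffix 3 (4 cells) to 14281 in suffix 4 (16 cells), far wider than the interval above. Ratios between gates pool the suffixes and are not matched on them. Within these 3 suffixes the monocyte-like ratios in barcodes of 1 suffix had a lowest value of 1.65, a median of 2.05 and a highest value of 2.24. All were below the pooled value of 2.28. With at least 1000 UMIs per cell the granulocyte-like ratio was 1.69 (1.51 to 1.87), below 2-fold. The phagocyte-set gate had the highest Fth1 of all gates, 9694 CPM, but 108 of its 128 barcodes were of several suffixes. Its other 20 had 5004 CPM (230 UMIs), close to the monocyte-like level.

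Ftl1 varied less. It was highest in the phagocyte-set (9632 CPM) and granulocyte-like gates (9474 CPM, 8915 to 10060), 1.41 times microglia in the latter, and monocyte-like cells had 8371 CPM. Over the suffixes the granulocyte-like level ran from 3610 CPM in suffix 3 to 12775 in suffix 4. With at least 1000 UMIs per cell it was 9376 CPM in the 13 cells without the granule genes described below. In the 15 with them it was 5692 CPM, below the 6744 CPM of all microglia-like cells. The 8 cells of the gate of border macrophage genes had 8603 CPM. Below microglia lay dendritic-like cells at 4961, choroid plexus-like barcodes at 3059 and NK-like cells at 1956 CPM. NK-like cells were 3.45-fold below microglia, and lower in 2 of 2 suffixes with 20 or more of them. Leaving out shared barcodes, Ftl1 was 1.44 times microglia in granulocyte-like, 1.27 times in monocyte-like and 0.756 times in dendritic-like cells.

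**Figure D1:**
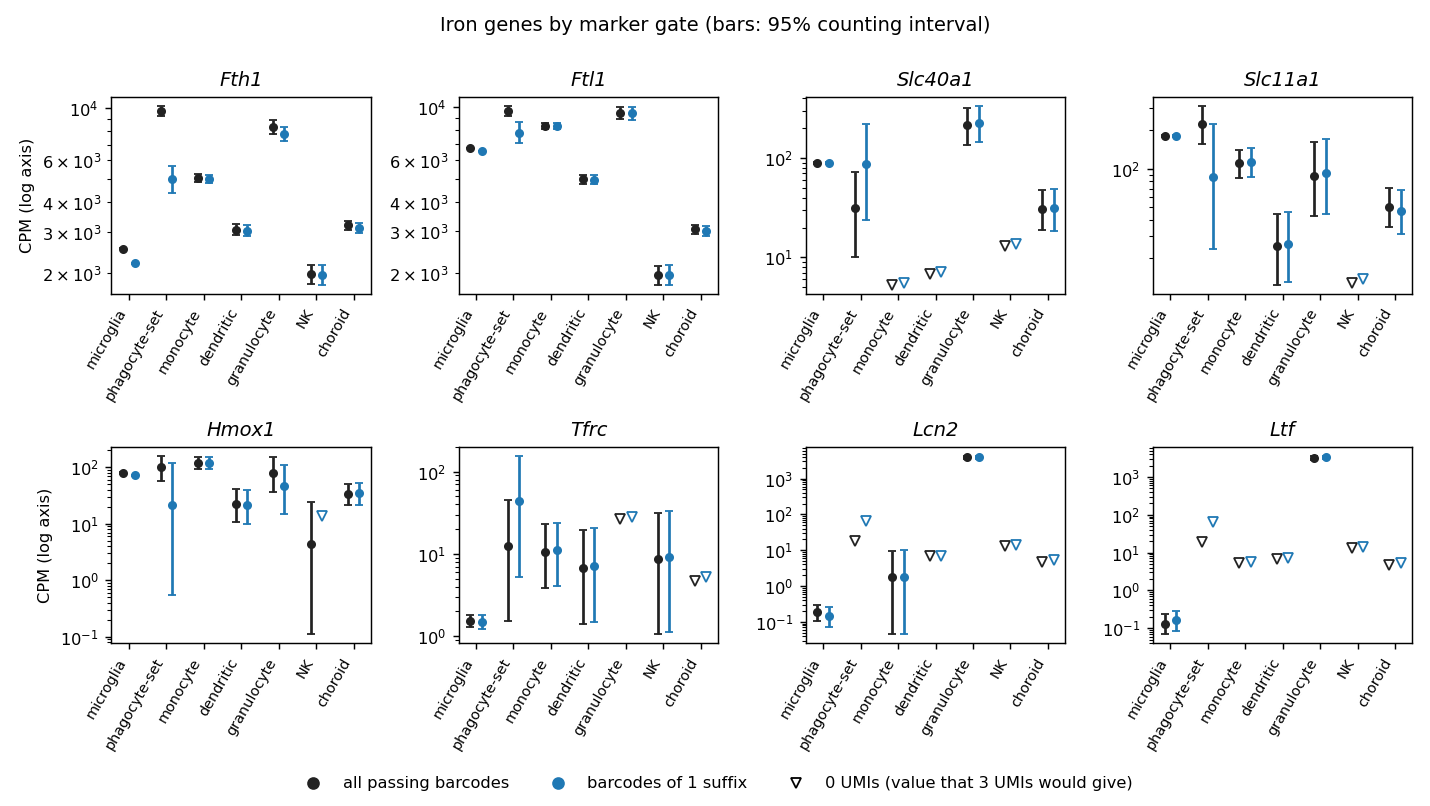
CPM of the 8 iron genes (log axis, scales differ between panels) in 7 marker gates, for all passing barcodes (black) and for barcodes of 1 suffix (blue); bars are 95% counting intervals and open triangles mark 0 UMIs at the value that 3 UMIs would give. Lcn2 and Ltf stand above 3000 CPM in the granulocyte gate, Slc40a1 is at 0 in the monocyte, dendritic and NK gates, and Fth1 in the phagocyte-set gate drops from 9694 to 5004 CPM when shared barcodes are left out.

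The balance of the transcripts of the chains differed between gates. A UMI marks the 3′ end of a transcript whatever its length, so the ratio of Fth1 to Ftl1 UMIs can be set side by side between groups. Part of the Ftl1 reads cannot be assigned to 1 gene, so even UMIs do not show equal RNA, and protein was not measured. Microglia-like cells had 0.376 Fth1 UMIs per Ftl1 UMI (0.375 to 0.378), and 0.336 in barcodes of 1 suffix. Monocyte-like cells had 0.604, dendritic-like cells 0.616 and granulocyte-like cells 0.878 (0.804 to 0.960). The granulocyte-like value was not the same in deeper cells. The 51 cells without the granule genes described below had 774 Fth1 and 778 Ftl1 UMIs. With at least 1000 UMIs per cell, 13 of them had 188 and 316. The 15 cells of that depth with the granule genes had 161 and 287. In NK-like cells the UMIs of the chains were near even, at 1.01 (0.888 to 1.16). The phagocyte-set gate stood at 1.01 over all barcodes but at 0.639 (0.539 to 0.756) in the 20 barcodes of 1 suffix, next to the monocyte-like value. Monocyte-like cells moved little, to 0.602, and granulocyte-like cells were at 0.820 in barcodes of 1 suffix. The gate of border macrophage genes moved from 0.899 in 8 cells to 0.660 (0.535 to 0.811) in its 5 barcodes of 1 suffix.

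**Figure D2:**
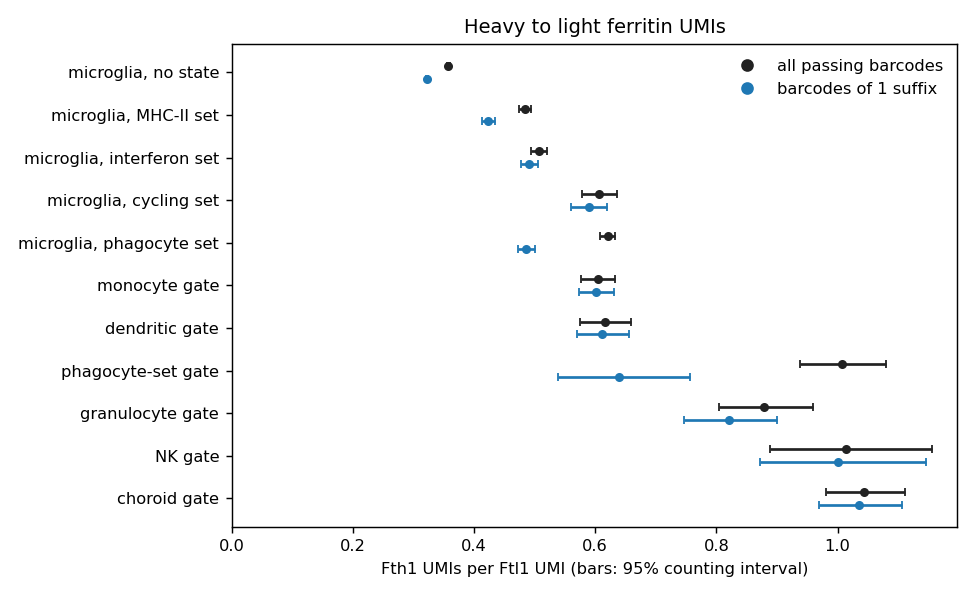
Fth1 UMIs per Ftl1 UMI (horizontal axis, from 0) in microglia by state and in the other gates, for all passing barcodes (black) and barcodes of 1 suffix (blue), with 95% counting intervals. Microglia without a state have the lowest ratio, 0.358 and 0.322, and NK-like and choroid plexus-like gates the highest.

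Within microglia the ferritin level appeared to depend on depth, and this turned with the shared barcodes. Over all barcodes, microglia of under 1000 UMIs had 3574 CPM of Fth1 and those of 4000 or more had 2544, a ratio of 1.40 (1.38 to 1.43), higher in 6 of 6 suffixes. In barcodes of 1 suffix the shallow cells had 1753 CPM (966 UMIs in 726 cells) against 2535, a ratio of 0.691 (0.648 to 0.737), lower in 6 of 6 suffixes. Shared sequences made up 7836 of the 8562 microglia of the lowest bin but 243 of the 5117 of the highest. Leaving them out reversed the direction for Ftl1 too, from 1.07 (1.06 to 1.08) to 0.703 (0.676 to 0.731). The same change of sign was seen for Hmox1, from 1.46 (1.34 to 1.59) to 0.801 (0.560 to 1.11), where the second interval reaches past 1.

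Barcodes of 1 suffix thus showed more ferritin RNA per UMI in deeper microglia. Fth1 was 1753, 1769, 1972, 2119 and 2535 CPM from the lowest to the highest of the 5 bins, and Ftl1 was 4682, 5217, 6573, 6665 and 6656. Slc40a1 went the other way, with 111 CPM (61 UMIs) in the lowest and 73.9 in the highest bin, higher in 4 of 6 suffixes, and so did Slc11a1, with 260 and 170, higher in 5 of 6. Of all genes with 20 CPM or more in either bin, 5.66% differed by 2-fold or more between the lowest and highest bin in barcodes of 1 suffix, and 7.04% over all barcodes; none of the 5 members tested reached that fold in either. Median mitochondrial shares were 1.57% in the lowest and 1.49% in the highest bin of barcodes of 1 suffix, and the 4 microglial genes Tmem119, P2ry12, Gpr34 and Olfml3 had 9192 and 8273 CPM. Apoe had 14101 and 14850 CPM, and the part of these in the ferritin values was not tested.

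The shared barcodes themselves were compared with others at the same depth. Among microglia in no state, and matched on suffix and UMI bin, those of several suffixes had 2.20 times the Fth1 (2.18 to 2.22; 3787 against 1723 CPM), 1.41 times the Ftl1 and 1.95 times the Hmox1 of those of 1 suffix, each higher in 6 of 6 suffixes. Slc11a1 was lower, at 0.739 (0.710 to 0.769), in 6 of 6 suffixes, and Slc40a1 was at 0.802, lower in 4 of 6. The 12824 barcodes of several suffixes held 3716 distinct sequences, so the same sequences recur under different suffixes. The counts of suffixes here are therefore not independent repeats, and the intervals do not cover this. Of all genes tested 5.14% differed by 2-fold or more in this comparison, and 1 of 5 members did, Fth1. Apoe, which carries lipids out of cells and is raised in activated microglia, was 3.56 times as high, at 33491 against 9401 CPM, and its part in the ferritin difference was not tested.

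**Figure D3:**
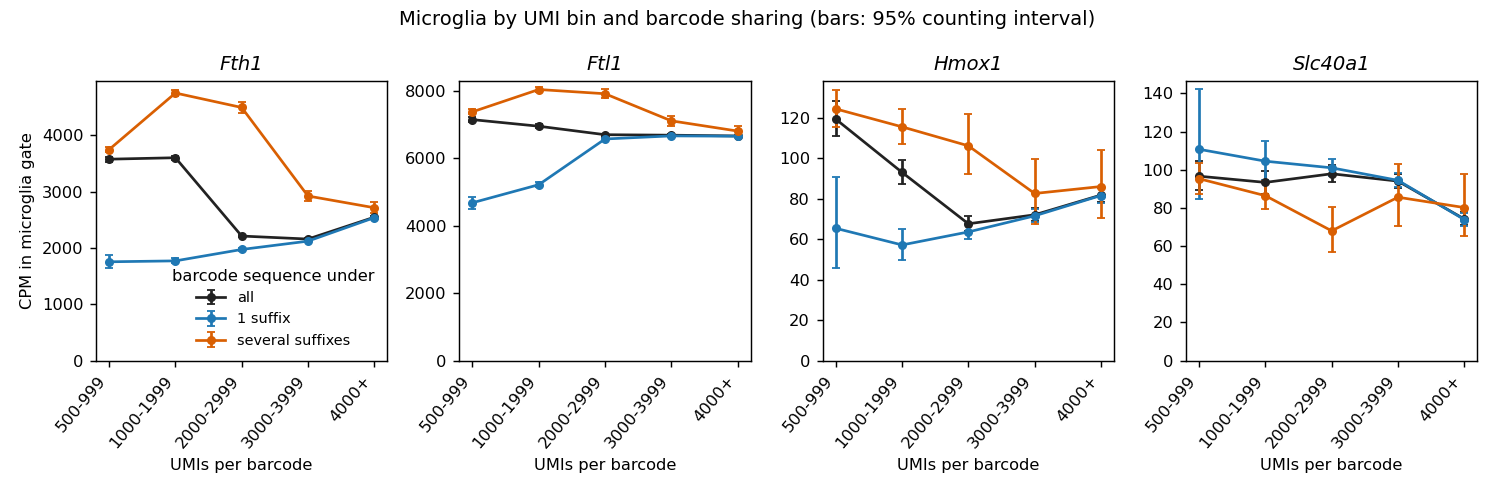
CPM of Fth1, Ftl1, Hmox1 and Slc40a1 in microglia (vertical axes from 0) by UMIs per barcode, for all passing barcodes (black), barcodes of 1 suffix (blue) and barcodes of several suffixes (orange), with 95% counting intervals. The black Fth1 line lies between the orange and blue lines, most barcodes below 2000 UMIs are of several suffixes, and the blue line climbs from 1753 to 2535 CPM.

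Slc40a1, the exporter, was found in microglia-like and granulocyte-like cells and not in monocyte-like or dendritic-like cells. Choroid plexus-like barcodes also held it (20 UMIs, 30.8 CPM), as did the phagocyte-set gate (5 UMIs, 31.1 CPM). The latter was 0.348 times microglia (0.113 to 0.813), but its 20 barcodes of 1 suffix had 87.0 CPM from 4 UMIs. Microglia-like cells had 89.4 CPM (87.4 to 91.3; 8140 UMIs), and in barcodes of 1 suffix the 6 suffixes ran from 77.7 through a median of 92.1 to 98.1 CPM, a narrow range. Monocyte-like cells had 0 UMIs of 568165, which allows up to 5.28 CPM, at least 16.9-fold lower than microglia. Dendritic-like cells also had 0 (at least 13.2-fold lower) and so did NK-like cells (at least 6.91-fold lower). These 0 counts were in gates that admit at most 1 UMI of the 4 microglial genes. Without that limit 2 UMIs appeared among the monocyte-like cells, a ratio of 0.0325 (0.00393 to 0.117). In the gate of border macrophage genes 0 UMIs allow up to 84.1 CPM, so a difference from microglia was not detectable at this depth, and 4 UMIs in 34 cells without the limit gave a ratio of 0.256 (0.0698 to 0.657).

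Granulocyte-like cells stood above microglia. They had 24 UMIs of Slc40a1 in 18 of 67 cells, 213 CPM (136 to 317) and 2.38 times the microglial level (1.53 to 3.55). Suffix 6 held 13 of these UMIs, and without it the ratio was 1.66 (0.830 to 2.98), an interval that includes 1. In the same gate the 4 microglial genes had 177 CPM, against 8920 in microglia, and Cd3d, a T cell gene, had 19 UMIs; their part in the value was not tested. After thinning each cell to 500 UMIs, 14.9% (7.40 to 25.7%) of granulocyte-like cells kept a UMI, against 4.49% of microglia and 0% of NK-like cells. All 24 UMIs were in barcodes of 1 suffix. The excess was not seen in deeper cells: of cells with at least 1000 UMIs, 15 with and 13 without the granule genes described below held 5 and 2 UMIs, together 0.937 times microglia (0.376 to 1.93). Across groups of 20 or more cells the patterns most like that of Slc40a1 belonged to Arrdc3 and Hpgds.

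Slc11a1 was higher in microglia than in monocyte-like, dendritic-like, granulocyte-like and NK-like cells. It had 180 CPM (177 to 183) in microglia, with 172 to 205 over the suffixes, and was found in 32.3% of cells. Monocyte-like cells had 111 CPM, 0.616 times microglia (0.473 to 0.788), and were lower in 3 of 3 suffixes, and granulocyte-like cells had 88.7 (10 UMIs). Dendritic-like cells had 24.8 CPM, 7.26-fold lower than microglia, and NK-like cells had 0 UMIs, at least 13.9-fold lower. The monocyte-like ratio was 0.629 (0.482 to 0.807) in barcodes of 1 suffix. In the phagocyte-set gate it had 224 CPM over all barcodes but 4 UMIs in the 20 of 1 suffix.

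Hmox1, which recycles heme, was higher in monocyte-like than in microglia-like cells. The former had 121 CPM (94.5 to 154), 1.53 times the 79.4 CPM of microglia (1.19 to 1.94), and in barcodes of 1 suffix the ratio was 1.68 (1.30 to 2.14), higher in 3 of 3 suffixes. Dendritic-like cells were at 22.6 CPM, 3.52-fold lower, and NK-like cells held 1 UMI. The gate of border macrophage genes had 140 CPM from 5 UMIs, a ratio of 1.76 whose interval runs from 0.573 to 4.12. That ratio was 0.861 without suffix 6, 0.865 in the 34 cells without the limit on microglial UMIs and 2.89 in barcodes of 1 suffix, so its direction is not settled. Hmox1 and Slc40a1, which act in sequence when a macrophage recycles iron, were thus apart in monocyte-like cells, with the first above and the second far below microglia.

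Tfrc was close to the limit of detection. Microglia-like cells had 1.52 CPM (138 UMIs in 37090 cells), and 0.367% of cells held a UMI. Monocyte-like cells had 10.6 CPM from 6 UMIs, 6.97 times microglia (2.51 to 15.6), and were higher in 3 of 3 suffixes. Cycling microglia, which need iron for DNA synthesis, had 5 UMIs in 281 cells, 3.63 times microglia in no state matched on suffix and UMI bin (1.18 to 8.48), but these came from 2 of 5 suffixes and the median ratio within suffixes was 0. All 5 UMIs were in barcodes of 1 suffix, where the ratio was 4.03 (1.31 to 9.40).

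Lcn2 and Ltf marked the granulocyte-like cells, although neither gene was used to gate them. Lcn2 had 3912 CPM (3555 to 4295) in that gate and Ltf 3194 (2872 to 3541), against 0.187 and 0.132 CPM in microglia. The spread between suffixes was far wider than these intervals. Lcn2 ran from 723 CPM in suffix 4 (16 cells) to 12133 in suffix 3 (4 cells), and Ltf from 0 to 12835 CPM in the same suffixes. They had 3981 and 3318 CPM in barcodes of 1 suffix. Outside the granulocyte-like gate, the monocyte-like gate held 1 UMI of Lcn2, and the phagocyte-set, dendritic-like, NK-like and choroid plexus-like gates held 0 of both. Lcn2, which glia and endothelium can also make in inflammation, was found in 14 of 37090 microglia-like cells (17 UMIs), so a microglial share of Lcn2 was not detectable beyond these. In the whole matrix, 1315 UMIs of Lcn2 were in 97 barcodes and 1262 of Ltf in 41.

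Detection in single granulocyte-like cells depended on depth. Of the 67 cells, with a median of 878 UMIs, 10 had UMIs of both genes, 19 of Lcn2 only, 0 of Ltf only and 38 of neither; of the 28 cells with 1000 UMIs or more, thinned to that number, 67.9% had Lcn2 and 28.6% Ltf. Over all 67, the 10 cells with both held 77.6% of the Lcn2 UMIs. The cells were then divided by at least 2 of Ngp, Camp, Chil3 and Cebpe, genes of the granule-building stage of neutrophil maturation. The 16 cells of this granule set had 7641 CPM of Lcn2, 9.58 times that of the other 51 (7.10 to 13.2), and held all 360 UMIs of Ltf, at least 144-fold above the others. Without the limit on microglial UMIs the division was the same, with all 888 UMIs of Ltf in 35 cells of the granule set and 0 in 108 others.

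Ferritin showed the reverse order in these cells. The 51 cells outside the granule set had 12601 CPM of Fth1 and 12666 of Ftl1, 3.94-fold and 2.24-fold above the granule set. Slc40a1 was also higher there, with 309 CPM (19 UMIs) against 97.5 (5 UMIs), and the ratio of the granule set to the others was 0.315 (0.0920 to 0.872). Their depths differed, with medians of 831 and 2756 UMIs. Among cells of at least 1000 UMIs, the 13 outside the granule set still had 1.75 times the Fth1 of the 15 within it, whereas Slc40a1 had only 2 and 5 UMIs. The Fth1 ratio was 3.70 in barcodes of 1 suffix.

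**Figure D4:**
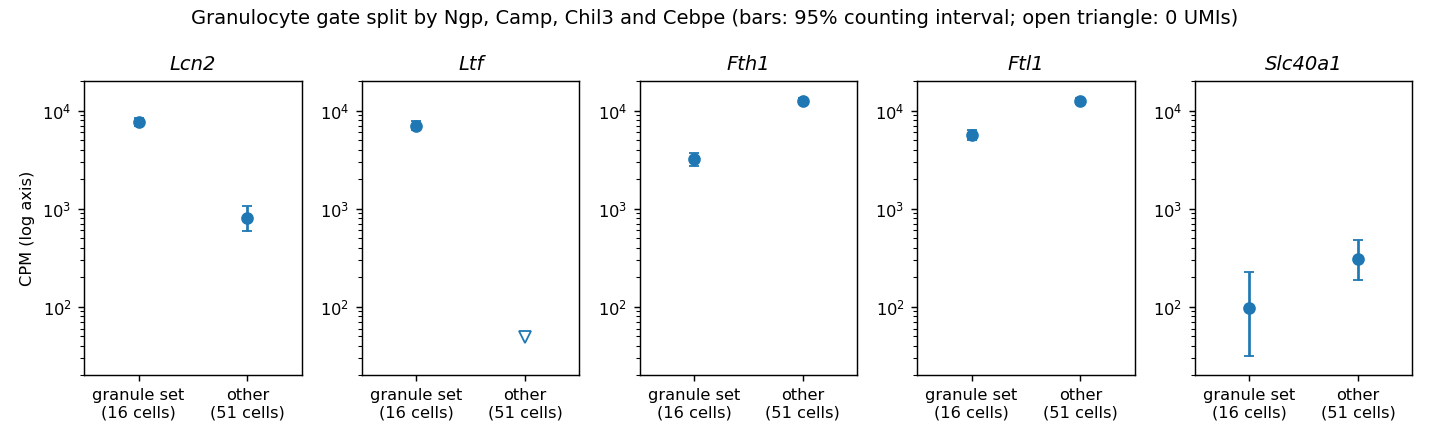
CPM (log axis) of Lcn2, Ltf, Fth1, Ftl1 and Slc40a1 in granulocyte-like cells with and without the granule set, with 95% counting intervals; the open triangle marks 0 UMIs of Ltf at the value that 3 UMIs would give. Lcn2 and Ltf are high on the left, and both ferritin genes on the right.

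The counts of members were read against all genes. Of genes with at least 20 CPM in either gate, 57.8% differed by 2-fold or more between granulocyte-like and microglia-like cells, 50.2% for NK-like, 50.8% for choroid plexus-like, 43.8% for dendritic-like, 41.8% for monocyte-like and 33.2% for phagocyte-set cells. With genes at 0 UMIs taken at 3 UMIs of their gate, these shares were 48.2% for granulocyte-like, 49.1% for NK-like and 31.9% for phagocyte-set cells and the same for the others, and the members' counts were unaffected. Of the members tested, 5 of 7 passed in granulocyte-like cells (Fth1, Slc40a1, Lcn2 and Ltf higher, Slc11a1 lower) and 4 of 5 in NK-like cells, all lower. For dendritic-like cells the count was 3 of 5, all lower, for monocyte-like cells 1 of 5 (Slc40a1), for choroid plexus-like barcodes 4 of 5, and for the phagocyte set 2 of 5. Such gates differ in a large part of all genes, and with 5 to 7 members these counts do not set the iron genes apart. Lcn2 and Ltf, at 0.187 and 0.132 CPM in microglia, reached 20 CPM only through the granulocyte-like gate. The filter thus fixed in advance that they would pass there.

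States of microglia were a closer comparison. Cells were placed in a state by at least 2 genes of a set (phagocyte, MHC class II, interferon or cycling) and set against microglia in no state, matched on suffix and UMI bin; the sets overlap. In barcodes of 1 suffix the 375 phagocyte-set microglia had 4391 CPM of Fth1, 1.86 times the matched level (1.82 to 1.91) and higher in 5 of 5 suffixes, with ratios of 1.70 to 2.13. Ftl1 was 1.38 times (1.36 to 1.41) and Hmox1 1.44 times (1.24 to 1.67) the matched level, both in 5 of 5 suffixes. In these 375 cells the 4 microglial genes had 4584 CPM, against 9681 in microglia in no state of 1 suffix. The part of other macrophages in this set was not tested. Over all 1103 such cells the Fth1 ratio was 2.13, and 728 of them were of several suffixes. Of all genes, 3.81% differed by 2-fold or more over all barcodes and 3.69% in barcodes of 1 suffix, and among the 5 members Fth1 passed in the first and none in the second.

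Fth1 also stood above its match in the MHC class II and interferon sets. The ratio was 1.34 (1.31 to 1.37) in 715 MHC class II-set cells and 1.33 (1.30 to 1.36) in 610 interferon-set cells of 1 suffix, in 6 of 6 suffixes each. Ftl1 was near its match in both, at 0.940 (0.928 to 0.953) and 1.00. Within suffixes it was above its match in 4 of 6 for each set, with median ratios of 1.10 and 1.03. Fth1 thus differed from its match by more than Ftl1. The ratio of Fth1 to Ftl1 UMIs was 0.423 and 0.491, against 0.322 in all microglia in no state, which are not matched on suffix or UMI bin. The matched levels of Fth1 and Ftl1 were 2180 and 7322 CPM for the MHC class II set. For the interferon set they were 2361 and 6410 CPM.

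Cycling microglia differed from the other states. Fth1 was at its matched level, 1.01 (0.967 to 1.05), while Ftl1 was 0.626 (0.607 to 0.645) and Hmox1 0.358 (0.238 to 0.517), each lower in 5 of 5 suffixes. Slc40a1 was the member that was lower in all 4 states, with ratios of 0.575 (phagocyte), 0.625 (MHC class II), 0.659 (interferon) and 0.714 (cycling), all with intervals below 1. It was lower in 5 of 5 suffixes for the phagocyte and cycling sets, and in 5 of 6 for the others. For the whole set of genes, 2-fold differences were seen in 1.57% (MHC class II), 2.95% (interferon) and 15.7% (cycling) over all barcodes, and in 1.47%, 3.01% and 16.4% in barcodes of 1 suffix. Among the members only Hmox1 in the cycling set passed that fold.

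**Figure D5:**
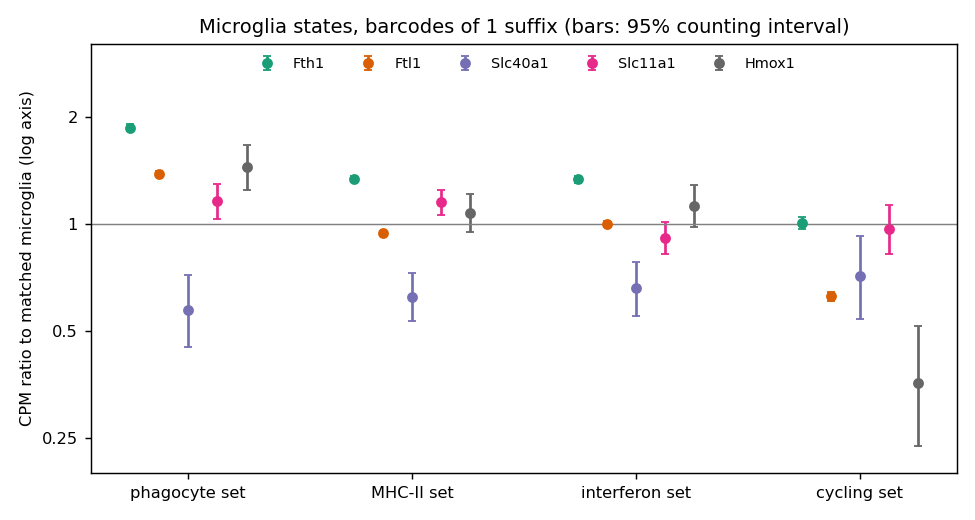
CPM ratio (log axis) of 5 members between microglia of each state and microglia in no state matched on suffix and UMI bin, in barcodes of 1 suffix, with 95% counting intervals of the state's UMIs; the line marks 1. Slc40a1 lies below 1 in all 4 states, Fth1 above 1 in 3 of them, and Ftl1 and Hmox1 below 1 in the cycling set.

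A list of 42 other iron genes, chosen with earlier results of these data known, gave the setting. In granulocyte-like cells 25 reached 20 CPM in either gate, of which 5 were at least 2-fold higher than in microglia and 6 lower; 3 of these 6 (Slc11a2, Slc39a8 and Slc22a17) were at 0 UMIs, where 3 UMIs would be 26.6 CPM, so that 2-fold is shown for the other 3 only. Of all genes 57.8% differed by 2-fold either way in this gate, so these counts do not set the list apart. Hp, haptoglobin, which binds free hemoglobin, had 2138 CPM in granulocyte-like cells (241 UMIs) against 0.725 in microglia, and 753 CPM in monocyte-like cells. Steap4, a ferrireductase, had 213 CPM (24 UMIs) and 0.0110 in microglia, and Slc7a11, the cystine carrier that feeds glutathione synthesis, 79.8 CPM (9 UMIs). Fbxl5, which senses iron and marks an iron regulatory protein for destruction, was 2.89 times microglia (17 UMIs). In this comparison Hp, Steap4 and Slc7a11 reached 20 CPM only in granulocyte-like cells, so the filter fixed that they would pass as higher.

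Some list genes were higher in microglia. Trf, transferrin, had 1086 CPM in microglia and 328 in granulocyte-like, 469 in dendritic-like and 60.3 in NK-like cells. Slc39a8, a zinc and iron importer, had 21.0 CPM in microglia and 0 UMIs in monocyte-like cells, at least 3.98-fold lower; it was also at 0 in granulocyte-like and NK-like cells, whose depth does not show a 2-fold difference. Slc22a17, the lipocalin 2 receptor, had 43.3 CPM in microglia and 0 UMIs in monocyte-like (at least 8.20-fold lower), dendritic-like (at least 6.40-fold) and NK-like cells (at least 3.35-fold). In choroid plexus-like barcodes it had 436 CPM, above microglia.

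Monocyte-like cells had 6 of 26 list genes at least 2-fold higher, among them the heme transporter Slc48a1 (2.25 times), Bach1, which represses Hmox1 (2.18 times), and Gpx4, which removes lipid peroxides (2.12 times), and 2 lower. NK-like cells had 2 of 23 higher and 11 lower (10 with Slc39a8 taken at 3 UMIs), and dendritic-like cells 3 of 24 higher and 6 lower. Of all genes 41.8% (monocyte-like), 50.2% (NK-like) and 43.8% (dendritic-like) differed by 2-fold either way, so these totals do not set the list apart. Within the phagocyte, interferon and MHC class II sets of microglia few list genes differed, and so did few of all genes. In the phagocyte and interferon sets 1 gene each of 23 and 25 passed 2-fold, Cp (ceruloplasmin, which oxidizes exported iron), and in the MHC class II set 0 of 23. With barcodes of 1 suffix these counts were 1 of 24, 1 of 25 and 0 of 22. The shares of all genes were 3.69%, 3.01% and 1.47% there, and 3.81%, 2.95% and 1.57% over all barcodes. The list is thus not set apart in these states.

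The genes with the most similar pattern over 29 sums of a gate and a suffix were Plin2 (r = 0.76) and Adam8 (0.76) for Fth1, Ctsc (0.94) and Ms4a6d (0.94) for Ftl1, and Hebp1 (0.95) and Ptafr (0.94) for Slc11a1. For Hmox1 they were Aig1 and Dram2 (0.91 and 0.89), for Slc40a1 Arrdc3 and Hpgds (0.89 and 0.88), and for Lcn2 Wfdc21 and Camp (both 0.98). Ltf was nearest to Orm1 and Cebpe (0.98 and 0.95), and Tfrc to Ern1 and Tusc1 (0.82 and 0.75). These are descriptions over sums that share suffixes and barcodes, and for Lcn2 and Ltf they rest on few sums with granulocytes. In 23 sums of barcodes of 1 suffix, r for Plin2 and Fth1 was 0.50, and for the other pairs it ran from 0.65 (Tusc1 and Tfrc) to 0.98 (Wfdc21 and Lcn2).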

How the data were processed

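CD45+ cells of 6 mice were measured by 3′ single-cell RNA sequencing. The authors processed the reads with Cell Ranger 3.1 on mm10 and deposited 1 matrix of raw counts, whole-number UMIs per gene and barcode, with no normalization; the submitters' processing notes also name Seurat 3.1.5. From the deposited counts, the study's limits were applied: more than 200 genes, no more than 2500, and a mitochondrial share below 5%, and 893, 762 and 10 barcodes failed on many genes, mitochondrial share and few genes. No doublet caller was run; 1 barcode with markers of several gates was left out.

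A cell entered a gate or state with at least 2 of its markers, and non-microglial gates other than choroid plexus admitted at most 1 UMI of Tmem119, P2ry12, Gpr34 and Olfml3. UMIs were summed per group. Counting intervals (95%) were exact Poisson for CPM, Clopper-Pearson for shares and conditional binomial for ratios, and 0 UMIs were bounded by 3. States were matched on suffix and UMI bin, and shares of cells with a UMI were taken after thinning to 500 UMIs. A gene counted as 2-fold different needed 20 CPM in either group; the count with genes at 0 UMIs taken at 3 UMIs was added after seeing the data. Named list genes were those past that fold from the microglia gate in the same direction in every suffix with 20 cells of the gate, at most 10 a comparison; Cp in the states was named after its values were seen. A result on 1 list gene is not reported here. Likeness was Pearson's r of log2(CPM + 1). The members and lists were chosen with earlier results of these data known. On simulated counts, 95.7% of intervals held the true ratio for monocyte-like against microglia-like cells (5398 genes), and 93% for matched phagocyte-set microglia (200 genes). These counts were Poisson draws, the model that the intervals assume, with no added spread between cells or mice. They check the calculation only and do not show that the intervals cover such a spread. Python 3.11.15, numpy 2.4.6, scipy 1.17.1, pandas 2.3.3 and matplotlib 3.10.9 were used.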

Additional observations from a re-analysis of the deposited data

Results flagged for a closer look

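Lcn2 and Ltf were also counted in barcodes outside the gates of the main comparisons. Ungated barcodes with granulocyte markers enter the granulocyte-like gate when the limit on microglial UMIs is dropped. Barcodes that failed the limits enter only when those limits are dropped. Among the 854 ungated barcodes Lcn2 had 490 UMIs in 37 cells and Ltf 528 UMIs in 13 cells, and each of these cells had at least 2 granulocyte markers. Among the 1660 barcodes that failed the limits Lcn2 had 366 UMIs in 16 cells, 13 of them with 2 granulocyte markers, and Ltf had 362 UMIs in 6 cells, all 6 with such markers. Ftl1-ps1, the near copy of Ftl1, had 3738 UMIs in passing barcodes and made up 0.577% of the summed Ftl1 and Ftl1-ps1 UMIs of microglia. These signals were picked out because they lie outside the main comparisons above, and their causes were not tested.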

How the results depend on the processing

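Of 12 ratios, 8 stayed inside their interval or at 0 UMIs when only barcodes of 1 suffix were used. That choice was made after seeing the data, as was the choice of 4 of the ratios. Those at 0 UMIs, Slc40a1 in monocyte-like cells and in the gate of border macrophage genes, have no interval and could not change. In barcodes of 1 suffix the Fth1 and Ftl1 ratios of the lowest to the highest UMI bin reversed, to 0.691 and 0.703. Fth1 became 1.86 in phagocyte-set microglia and 3.52 in granulocyte-like cells. Without mitochondrial and ribosomal protein genes the bin ratios were 1.37 (Fth1) and 1.05 (Ftl1), and Fth1 in phagocyte-set microglia was 2.16. With at least 3 markers Fth1 was 1.35 in the bins and 3.58 in granulocyte-like cells, and the gate of border macrophage genes had no cell left. With at least 1000 UMIs the Ftl1 bin ratio was 1.04, Fth1 in granulocyte-like cells 1.69, and Slc40a1 there reversed to 0.937. As medians within suffixes, the Ftl1 bin ratio was 1.06, Fth1 in phagocyte-set microglia 2.02, Slc40a1 in granulocyte-like cells 3.68 (1 suffix) and Tfrc in cycling microglia 0, a reversal. With no limit on microglial UMIs, Slc40a1 was 0.256 in the gate of border macrophage genes and 0.0325 in monocyte-like cells, Fth1 in granulocyte-like cells 2.40 and Lcn2 11696. Over all deposited barcodes Fth1 was 2.00 in phagocyte-set microglia and 3.68 in granulocyte-like cells, and with no upper limit on genes 1.97 in the former. The causes of these moves were not tested.

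Omission of 1 suffix at a time gave 1.33 to 1.46 for the Fth1 and 1.04 to 1.10 for the Ftl1 bin ratio, 2.02 to 2.19 for Fth1 in phagocyte-set microglia and 2.88 to 3.44 in granulocyte-like cells, 1.66 to 2.91 for Slc40a1 there, 2.58 to 4.42 for Tfrc in cycling microglia and 0.861 to 2.12 for Hmox1 in the gate of border macrophage genes. Gate size limits the depth: 3 UMIs correspond to 5.28 CPM in the 133 monocyte-like cells and to 84.1 CPM in the 8 cells of the gate of border macrophage genes. No analysis by mouse or by group of mice was possible because no label ties a suffix to a mouse. Ratios within suffixes are given above as descriptions.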
